A study of Caenorhabditis elegans with 7 samples.

Results

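A group of 7 lipid metabolism genes of the nematode Caenorhabditis elegans was followed in larvae that lack a working ahr gene. They are the fatty acyl-CoA synthetase genes acs-14 and acs-23, the enoyl-CoA hydratase gene ech-7, the elongation gene art-1, the lipid-binding protein gene lbp-3, the lipase-related gene lips-8 and the sphingosine phosphate lyase gene spl-2. They were taken by symbol from the annotation of the authors' deposited value table, which names 959 genes, and each of the 7 has 1 annotated row. All 7 rows matched a spot of their own on the arrays, as did 780 named genes in all, and all 7 were tested among 22501 spots. Whole worms at the first larval stage (L1) were compared, 4 samples of a strain described as carrying a nonfunctional ahr gene (ahr mutant) and 3 wild-type samples. The labels name neither the allele of the mutant nor the age of the larvae in hours. Eggs of both strains hatched on plates with liquid and E. coli, and no further treatment is named. Cy3-labelled cDNA made from total RNA was hybridized, 1 array for each sample.

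The ahr gene of the worm codes for a transcription factor related to the aryl hydrocarbon receptor of vertebrates, which small molecules switch on in those animals. Fatty acids enter metabolism only after an acyl-CoA synthetase has joined them to coenzyme A, and the activated chains are then shortened by oxidation, lengthened by elongation or built into storage and membrane lipids. Lipases release fatty acids from stored lipid, and fatty acid binding proteins carry them in water. Sphingolipids leave their pathway through sphingosine-1-phosphate lyase, which splits phosphorylated sphingoid bases for good. In the worm the intestine is the main site of fat storage and breakdown.

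Each array gave between 21942 and 22593 spots with a positive signal. The median signals were 62372.5, 88841.5, 90919 and 83351 intensity units in mutant replicates 1 to 4. In wild-type replicates 1 to 3 they were 59138, 52277 and 66600. Signals are given below as log2 intensities after quantile normalization, a scale on which 1 unit is a doubling. A level of 1 spot is not comparable with that of another spot. A pair of facts about the arrays touches every gene below. The file of ahr-mutant replicate 1 is in another row order than the others, with rank correlations of -0.0117 to 0.0354 to them as deposited. Its spots were put back in order by their likeness in signal to the other 6 arrays. The rank correlations to these arrays were then 0.683 to 0.812, against 0.632 to 0.804 among the other 6 arrays. As the ordering used this likeness, the rise is partly built in. The strain difference also drifted over the slide, which carries 12 rows of printed blocks: the median log2 difference of spots outside the deposited table ran from -0.46 in slide row 1 to 0.50 in slide row 12. The strain difference of each of the 7 genes is therefore given also with a local position adjustment, which takes from every array its median deviation among neighbouring spots. In whole larvae, fewer cells of a type and less RNA per cell cannot be told apart.

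Among the 7 genes, the 5 genes spl-2, lbp-3, lips-8, ech-7 and acs-14 had lower means in the mutants, and acs-23 and art-1 had higher means. None of the 7 passed the threshold of 0.05 on the adjusted p (limma, Benjamini-Hochberg over all spots), which 0.00889% of all spots tested passed. At an unadjusted p under 0.05 stood 3 of the 5 lower genes, where 3.56% of all spots did so in that direction, and both higher genes, where 4.05% did so, which makes 5 genes against 7.61% of all spots in either direction. The strains did not overlap for 6 of the 7 genes, against 8.74% of the spots with a value on all arrays. These were all 5 lower genes, against 4.03% of spots in that direction, and 1 higher gene, against 4.71%. The authors' table is itself made up largely of such spots, 79.7% of them without overlap and 64.3% at an unadjusted p under 0.05, and the 7 genes come from that table. Their counts are near those of the table and are read as a description only. Their median log2 difference was -0.74, against -0.52 over the 780 named genes and 0.02 over all spots tested. All these values are from normalized signals. In deposited intensity units, not scaled between arrays, the strains overlapped for acs-14, ech-7, lips-8 and acs-23. They stayed apart in these units for spl-2, lbp-3 and art-1.

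**Figure D1:**
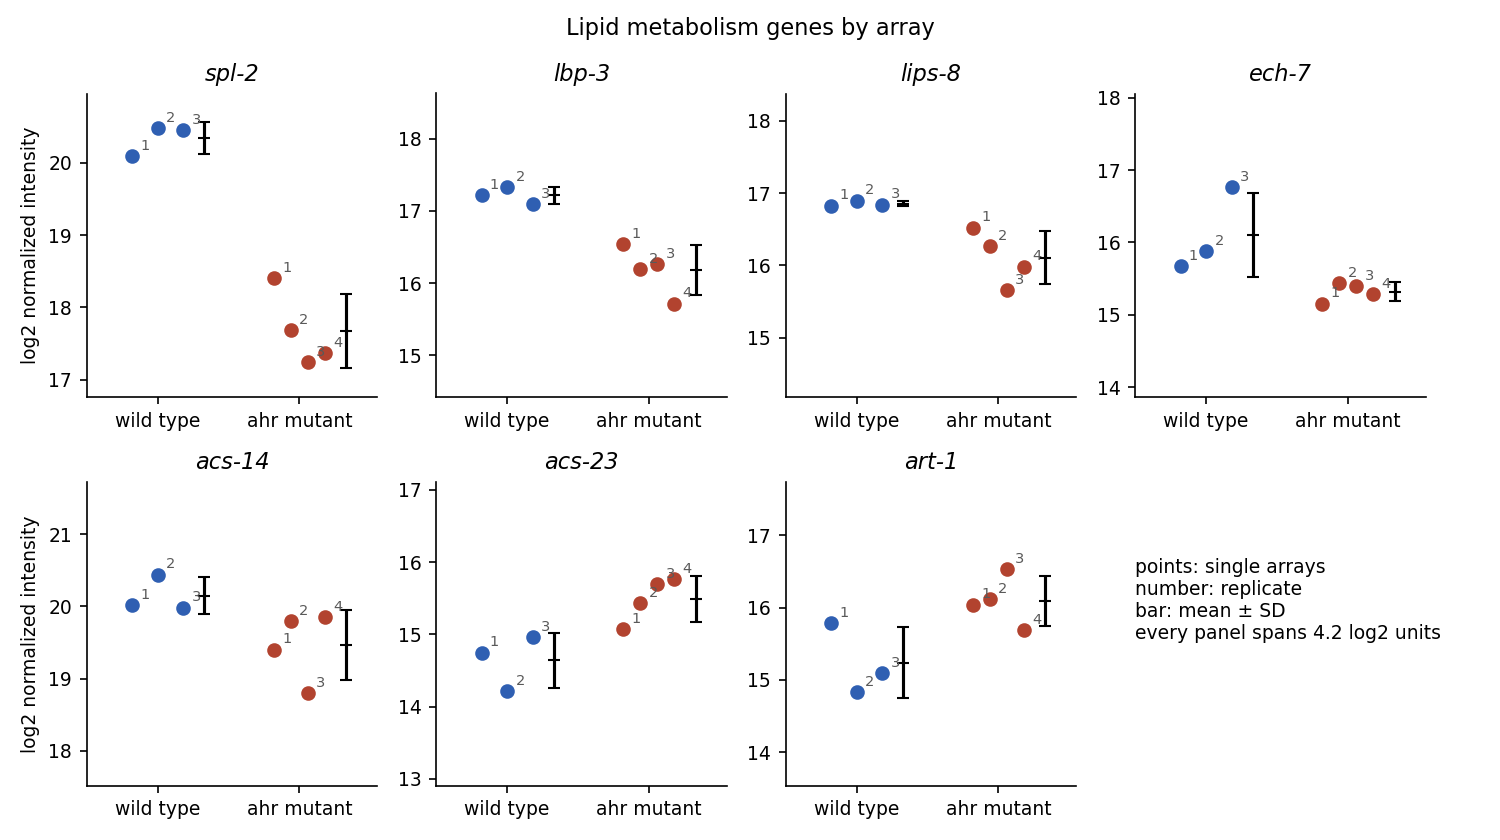
Log2 normalized intensity (vertical axis) of the 7 lipid metabolism genes in each of 3 wild-type arrays (blue) and 4 ahr-mutant arrays (red), with replicate numbers beside the points and the mean ± SD of each strain as a black bar. The strains are farthest apart for spl-2, where the highest mutant is at 18.40 and the lowest wild-type array at 20.09, and they overlap for art-1.

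The clearest difference among the 7 was that of spl-2, locus B0222.4. The mutant arrays read 18.40, 17.68, 17.24 and 17.37 on the log2 scale in replicates 1 to 4, and the wild-type arrays read 20.09, 20.48 and 20.45. Each mutant thus lay below each wild type, with a gap of 1.69 between the highest mutant, replicate 1, and the lowest wild type. In deposited intensity units the mutants had 331951, 258175, 218918 and 172233 and the wild types 1294869, 1248546 and 1266312. The spot was bright, at percentiles 97.7 to 98.8 of the wild-type arrays and 73.2 to 87.1 of the mutant arrays. spl-2 was 6.36-fold lower in the mutants, with a mean of 17.67 ± 0.52 (SD, n = 4) against 20.34 ± 0.22 (SD, n = 3) and a log2 difference of -2.67 ± 0.37 (SE; 95% interval -3.50 to -1.84). The limma adjusted p was 0.0936, which did not pass, and the exact two-sided permutation p was 0.0286, the smallest that the 35 splits of 7 arrays allow. Of the 22501 spots tested, 8 had a smaller p and 34 had a larger difference in either direction.

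Around spl-2 on the slide, the spots outside the deposited table mostly differed less. The spot lies in slide row 5, and 188 spots outside the table in the window around it had a median log2 difference of -0.26, with 1 of them as low as spl-2. The gene comes from the table, which holds mostly spots that differ between these samples. That it stands apart from neighbours outside the table is therefore partly built in. With the local position adjustment the mutant arrays read 18.50, 17.79, 17.56 and 17.59 and the wild-type arrays 19.99, 20.16 and 20.35, still without overlap. The gene was then 4.94-fold lower (log2 difference -2.30 ± 0.31, SE; limma adjusted p = 0.0716). Without ahr-mutant replicate 1, the mutant nearest to the wild type, the log2 difference was -2.91 ± 0.34 (SE; limma adjusted p = 0.102). The authors' deposited table gives spl-2 ratios of 0.546, 0.431 and 0.389 for mutant replicates 2 to 4 and of 4.04, 4.52 and 3.57 for the wild types, with no value for mutant replicate 1.

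Another 2 genes of sphingolipid metabolism are named in the annotation of the authors' table, out of 28 on the list of that pathway. A second lyase gene of the same family, spl-3, had the opposite direction. Its mutant arrays read 17.29, 17.51, 17.01 and 16.99 and its wild-type arrays 15.92, 15.60 and 15.25, so that all mutants lay above all wild types. In the mutants spl-3 had a 3.05-fold higher mean (log2 difference 1.61 ± 0.33, SE; limma adjusted p = 0.244) and did not pass. Its spot lies in slide row 12, with a median of 0.50 among spots not in the table, and it was 2.15-fold higher once adjusted for position (limma adjusted p = 0.399). Probe sequences were not used here, so whether the spl-2 and spl-3 probes also bind each other's transcript was not tested.

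The sphingomyelin synthase gene sms-2, whose enzyme makes sphingomyelin from ceramide, was 1.68-fold lower. Its mutant arrays read 15.57, 15.66, 14.88 and 15.43 and its wild-type arrays 16.35, 16.01 and 16.05, without overlap (log2 difference -0.75 ± 0.33, SE; limma adjusted p = 0.653). sms-2 lies in slide row 2, where the median outside the table was -0.35, and was 1.12-fold lower once adjusted for position. The 3 named sphingolipid genes thus had 2 lower and 1 higher mean, with 0 past the threshold. Their median log2 difference was -0.75, against -0.52 over the 780 named genes, and -0.17 once adjusted for position.

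**Figure D2:**
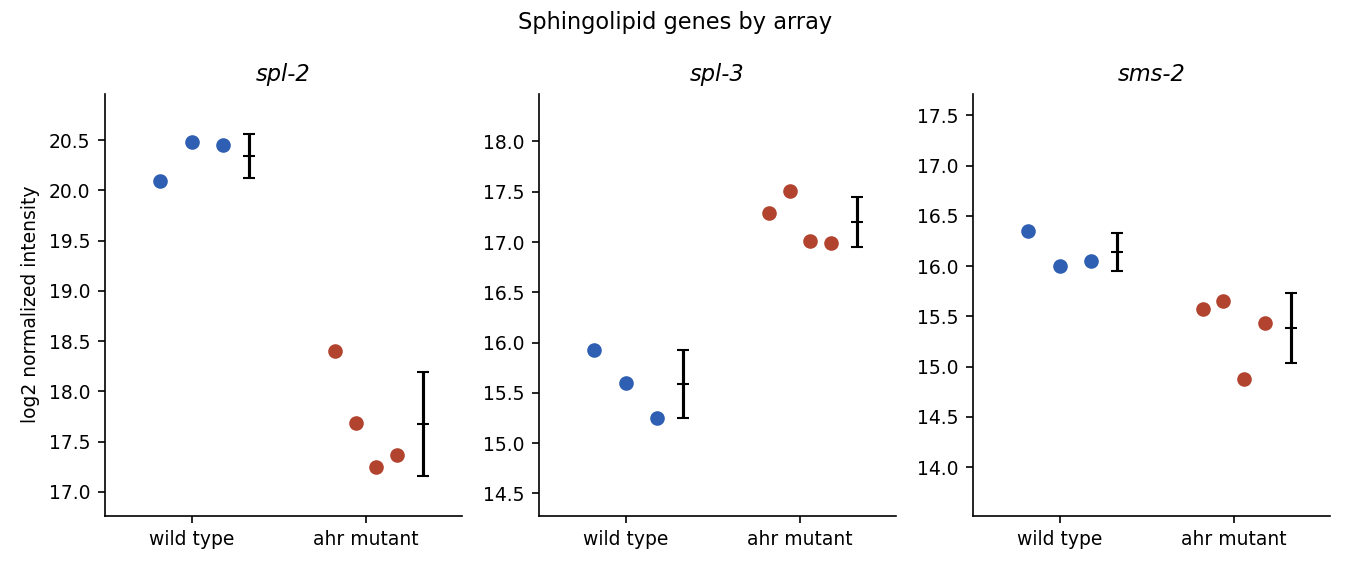
Log2 normalized intensity (vertical axis) of the sphingolipid genes spl-2, spl-3 and sms-2 in 3 wild-type arrays (blue) and 4 ahr-mutant arrays (red), with the mean ± SD of each strain as a black bar. The mutant points lie below the wild type for spl-2 and sms-2 and above it for spl-3, with no overlap in any of the 3. Among spots with a value on all arrays the strains did not overlap for 8.74%, and for 79.7% of those in the deposited table, from which the 3 come.

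Of 23 genes on the list of fatty acid activation, the synthetase genes acs-14 and acs-23 are named, and neither passed. acs-14 (locus F11A3.1) read 19.40, 19.80, 18.80 and 19.85 in the mutants and 20.02, 20.44 and 19.98 in the wild types. The strains did not overlap, but only 0.13 lay between the highest mutant and the lowest wild type, and mutant replicate 3 was the lowest array. The mean was 19.46 ± 0.48 (SD, n = 4) against 20.15 ± 0.25 (SD, n = 3), 1.61-fold lower in the mutants. The log2 difference of -0.68 ± 0.36 (SE; 95% interval -1.503 to 0.135) did not pass (limma adjusted p = 0.685; exact permutation p = 0.0857). acs-14 lies in slide row 7, and its neighbours not in the table had a median of -0.06. Adjusted for position it was 1.52-fold lower, and the strains only just stayed apart, with the highest mutant at 19.878 and the lowest wild type at 19.884.

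acs-23 (locus R09E10.4) is called a pseudogene in the RefSeq gene table, the only one of the 7, so its signal may not stand for an enzyme. It read 15.07, 15.43, 15.69 and 15.77 in the mutants and 14.75, 14.21 and 14.96 in the wild types. The mutants all lay higher, by at least 0.12 between mutant replicate 1 and wild-type replicate 3. The spot was dim, at percentiles 1.81 to 13.2 of the wild-type arrays and 15.1 to 39.9 of the mutant arrays. The files hold no detection calls, so a fold at this signal may be understated or overstated. acs-23 was 1.80-fold higher (log2 difference 0.85 ± 0.34, SE; 95% interval 0.08 to 1.62) and did not pass (limma adjusted p = 0.630; exact permutation p = 0.0571). With a normexp background correction the log2 difference was 1.77 ± 0.61 (SE; limma adjusted p = 0.597). acs-23 lies in slide row 10, among spots with a median of 0.39. Adjusted for position it was 1.35-fold higher and the strains overlapped.

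Of fatty acid oxidation, 1 gene of 48 on the list is named, ech-7 (locus Y105E8A.4). Enoyl-CoA hydratases add water to the double bond of a fatty acyl-CoA in each round of oxidation. The mutants were close together at 15.15, 15.44, 15.40 and 15.28, while the wild types read 15.68, 15.88 and 16.77. All mutants lay below all wild types, and the wild-type spread came mostly from replicate 3. ech-7 was 1.73-fold lower, at 15.32 ± 0.13 (SD, n = 4) against 16.11 ± 0.58 (SD, n = 3). The log2 difference of -0.79 ± 0.36 (SE; 95% interval -1.59 to 0.01) did not pass (limma adjusted p = 0.657; exact permutation p = 0.0286). Without wild-type replicate 3 the log2 difference was -0.46 ± 0.34 (SE; limma adjusted p = 0.718). The mutant signals were low, at percentiles 17.6 to 28.6, so the fold of ech-7 may also be understated or overstated. With the normexp background correction its log2 difference was -1.11 ± 0.51 (SE; limma adjusted p = 0.661). The spot lies in slide row 4 among spots with a median of -0.25. In wild-type replicate 3 the neighbouring spots were also high, by 0.68, and with the local position adjustment that array read 16.09 and the gene was 1.44-fold lower, without overlap of the strains.

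Of fatty acid synthesis, elongation and desaturation, 2 genes of 25 on the list are named, art-1 and acly-1, and both had higher means. art-1 (locus C15F1.6) encodes a relative of the mammalian enoyl-CoA reductase that completes each cycle of very long chain elongation. It read 16.04, 16.12, 16.53 and 15.69 in the mutants and 15.79, 14.83 and 15.09 in the wild types. Mutant replicate 4 lay below wild-type replicate 1, so the strains overlapped. art-1 was 1.81-fold higher, at 16.10 ± 0.34 (SD, n = 4) against 15.24 ± 0.49 (SD, n = 3). The signal was low in wild-type replicates 2 and 3, at percentiles 10.2 and 17.1, so this fold may also be understated or overstated. With the normexp background correction the log2 difference of art-1 was 1.31 ± 0.55 (SE; limma adjusted p = 0.633). The log2 difference of 0.86 ± 0.37 (SE; 95% interval 0.04 to 1.68) did not pass (limma adjusted p = 0.643; exact permutation p = 0.0857). art-1 lies in slide row 12 among spots with a median of 0.45, of which 40 of 205 had a difference as high. Adjusted for position it was 1.34-fold higher, and the strains no longer overlapped.

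acly-1, which encodes ATP citrate lyase, a source of acetyl-CoA for fatty acid synthesis, read 18.43, 19.01, 18.54 and 19.11 in the mutants and 17.97, 18.22 and 17.57 in the wild types. The mutants all lay higher. acly-1 was 1.81-fold higher (log2 difference 0.85 ± 0.34, SE; limma adjusted p = 0.630), and 1.36-fold higher with the local position adjustment. Like art-1 it lies in slide row 12.

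The lipid-binding list has 25 genes, of which lbp-3 (locus F40F4.4), a member of the fatty acid binding protein family, is named. It read 16.54, 16.19, 16.27 and 15.72 in the mutants and 17.22, 17.33 and 17.09 in the wild types. The gap between the strains was 0.55, the second widest of the 7 after spl-2, and the wild types differed little from each other. lbp-3 was 2.05-fold lower, at 16.18 ± 0.34 (SD, n = 4) against 17.21 ± 0.12 (SD, n = 3). The log2 difference of -1.03 ± 0.32 (SE; 95% interval -1.76 to -0.30) did not pass (limma adjusted p = 0.534; exact permutation p = 0.0286). The spot lies in the same printed block as spl-2, in slide row 5, where the spots around it had a median of -0.43. In wild-type replicate 2 those neighbours were high by 0.75. Adjusted for position lbp-3 was 1.46-fold lower, and wild-type replicate 2, at 16.57, lay among the mutants.

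Of 30 lipase genes on the list, lips-8 (locus F31F6.7) is named. The mutants read 16.52, 16.27, 15.66 and 15.98, and the wild types were nearly alike at 16.82, 16.89 and 16.84. All mutants were lower, by 0.30 or more. lips-8 was 1.68-fold lower, at 16.11 ± 0.37 (SD, n = 4) against 16.85 ± 0.04 (SD, n = 3). The log2 difference of -0.74 ± 0.33 (SE; 95% interval -1.48 to -0.01) did not pass (limma adjusted p = 0.654; exact permutation p = 0.0571). Its spot lies in slide row 2, among spots with a median of -0.47, and 49 of its 173 neighbours outside the table were as low. Adjusted for position it was 1.12-fold lower (log2 difference -0.16 ± 0.26, SE; limma adjusted p = 0.921), and the strains overlapped.

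**Figure D3:**
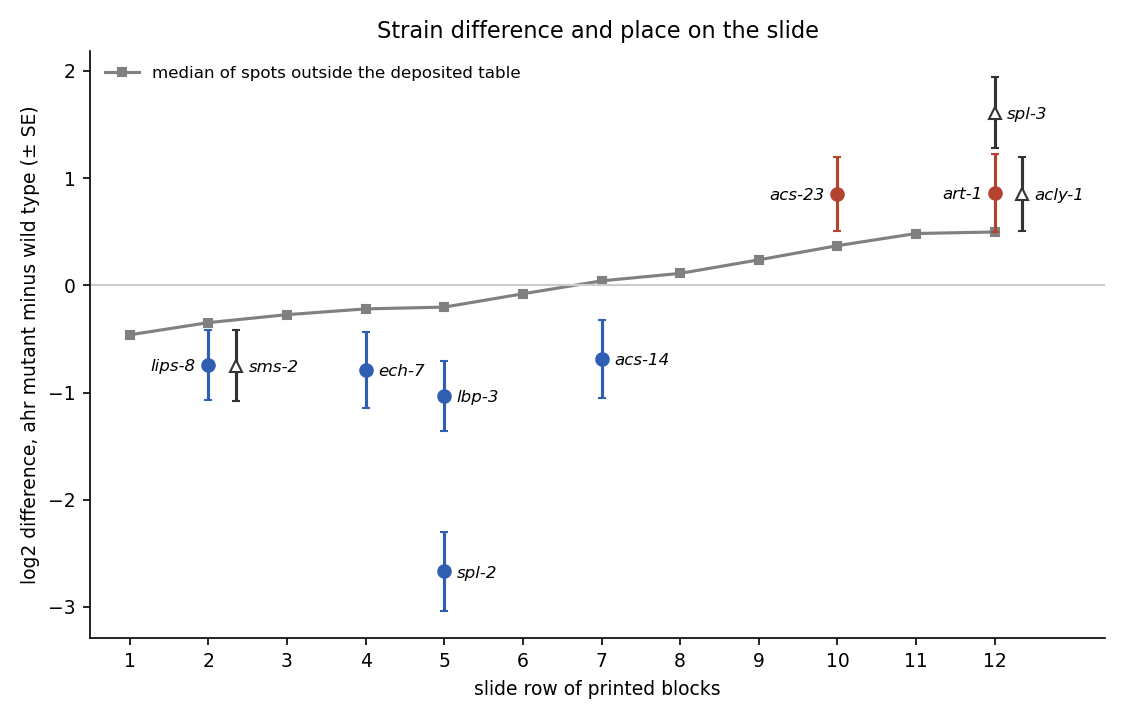
Log2 difference between the strains (vertical axis, ± SE) against the slide row of printed blocks (horizontal axis, 1 to 12) for the 7 lipid metabolism genes (circles, blue for lower and red for higher in the mutants) and for spl-3, sms-2 and acly-1 (open triangles, sms-2 and acly-1 moved sideways for legibility), with the median of spots outside the deposited table as a grey line. Lower genes lie in slide rows 2 to 7 and higher genes in slide rows 10 to 12, on the same side as the grey line except acs-14, and spl-2 lies farthest from the line.

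The direction of 6 of the 7 genes was also that of the unselected spots in their slide row, the exception being acs-14. How much of these differences is drift was not tested. With the local position adjustment all 7 kept their direction. 4 of the 7 then had strains that did not overlap, against 7.83% of all spots with a value on all arrays, namely 3 lower genes, spl-2, acs-14 and ech-7, against 3.74% of spots, and 1 higher gene, art-1, against 4.09%. At an unadjusted p under 0.05 stood 1 gene, spl-2, with the adjustment, against 6.79% of all spots, 3.32% lower and 3.47% higher. An adjusted p under 0.05 was then reached by 0.0133% of all spots and by 0 of the 7 genes. The share among the spots of the authors' table, from which the 7 genes come, was not computed with the adjustment. The counts with the adjustment are therefore also a description only. The median log2 difference of the 7 genes went from -0.74 to -0.53. Subtracting the median of each printed block gave log2 differences of -2.37 for spl-2, -0.74 for lbp-3, -0.58 for acs-14, -0.47 for ech-7, -0.27 for lips-8, 0.53 for acs-23 and 0.30 for art-1, and none passed.

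**Figure D4:**
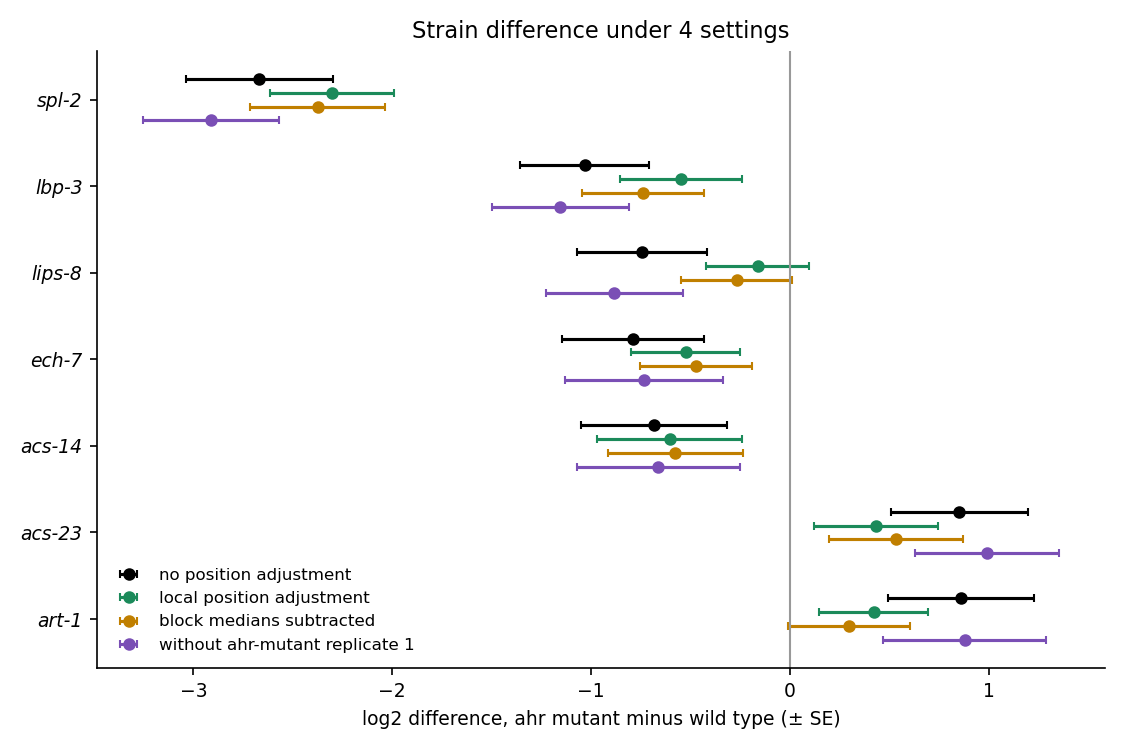
Log2 difference between ahr mutant and wild type (horizontal axis, ± SE) for the 7 lipid metabolism genes with no position adjustment (black), with the local position adjustment (green), with block medians subtracted (orange) and without ahr-mutant replicate 1 (purple). spl-2 stays between -2.91 and -2.30 in these 4 settings, while lips-8 goes from -0.74 to -0.16 with the local position adjustment.

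The genes were also compared by the shape of their values over the 7 arrays, as the root mean square distance between log2 profiles centred on their own means. Among the 7, lbp-3 and lips-8 were closest (0.289), followed by acs-14 and lips-8 (0.309) and by acs-23 and art-1 (0.390). Among 717 other named genes with a value on all arrays, the closest to spl-2 were Y59E9AL.5, called a pseudogene in RefSeq, at 0.183, and pmp-3, a gene of the peroxisomal ABC transporter family, at 0.418, against a median distance of 1.18. Y59E9AL.5 had a log2 difference of -2.73, or -2.36 once adjusted for position, and lies in slide row 5 as spl-2 does. pmp-3 had one of -2.02, in slide row 1, and was 4.06-fold lower, or 2.30-fold once adjusted for position. Another peroxisome gene, the import receptor gene prx-5, was 2.74-fold higher (1.75-fold once adjusted for position), and neither passed; these peroxisome genes were added after the annotation was seen.

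For the other genes the nearest profiles mostly came from nearby slide rows. The closest to lips-8 were R07E4.1 (0.126) and srh-300 (0.128), both in slide row 2. The closest to lbp-3 were F42A8.1 (0.158) and F19G12.3 (0.173), both in slide row 5. art-1 was nearest to spe-18 (0.109) and odr-8 (0.162), both in slide row 12, and acs-23 to trmt-10C.1 (0.142) and Y53F4A.2 (0.150), in slide rows 12 and 9. ech-7 was nearest to F28C6.8 (0.113) and rexd-1 (0.156), in slide rows 4 and 5. acs-14 was nearest to nhr-251 (0.176) and cul-3 (0.190), in slide rows 2 and 5. These distances were computed without a position adjustment, and describe 7 arrays that share the strain split and the drift.

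Over 7 lists with 210 lipid genes in all, 11 are named in the annotation, the 7 above and spl-3, sms-2, acly-1 and acl-5. Of these, 10 had a spot and 0 passed the threshold over all spots. acl-5, related to acyltransferases of glycerolipid synthesis, matched no spot. The authors' deposited table gives it ratios of 0.807, 0.807 and 0.553 for mutant replicates 2 to 4 and of 1.199, 1.276 and 1.188 for the wild types. Spots without a name were not used for these lists. Markers of the intestine, body wall muscle and neurons and the vitellogenins, yolk proteins of the adult, have no named gene here, so the tissue and stage of the samples could not be checked by them. Of 12 hypodermis markers 4 are named. The means of dpy-14 and col-105 were 3.10-fold and 3.39-fold lower (dpy-14 without mutant replicate 1, which has no placed value), and those of the collagen genes col-45 and col-154 were 3.01-fold and 1.99-fold higher. Their median log2 difference was -0.32, and -0.20 once adjusted for position. Of 7 germline and sperm markers 4 are named. The means of msp-78, a major sperm protein gene, nspd-7 and nspd-10 were 2.1-fold, 5.28-fold and 3.25-fold higher, and that of ssp-19 was 1.68-fold lower. Their median log2 difference was 1.39, and 0.96 once adjusted for position. The mean levels of these 4 genes lay between 15.89 and 19.32 in the mutants and between 16.30 and 17.62 in the wild types. None of the 8 markers passed, and their part in the lipid results was not tested.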

How the data were processed

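RNA of 4 ahr-mutant and 3 wild-type samples was measured on 1-colour spotted arrays, with the strain label giving the groups. The authors deposited 1 linear intensity per spot for 23232 spots of each array; the scanner and any background treatment: not given in the sources used here. Blank, 0 and negative intensities were set to missing. The authors also deposited a table of 1290 rows whose values are a ratio of signals, as their fit to the array files shows. Its rows were matched to spots by value within 0.0001 on the log2 scale (1080 rows, 27 of them sharing a spot). The platform annotation names a gene for 961 rows, all found in the RefSeq table of WBcel235. Coordinates are left out, as no source names the genome build of the array.

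The spots of ahr-mutant replicate 1 were put in order by signal, in segments of at least 100 spots with a rank correlation of at least 0.7 to the other arrays. Another 2 segments were set aside because 6 of 28 positions known from exact table values were in other places. In all, 19217 spots (82.7%) were placed, with all 7 genes among them. Of 365 positions known from the table, 319 were placed by signal, all 319 at the exact position. Because segments with a known position elsewhere had been set aside, this is no measure of the accuracy of the placing. The 5 lower genes have no table value for this array, so their placing rests on signal alone. For acs-23 and art-1 the exact table value occurs at 2 and 3 positions, 1 of them the placed one.

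Each array was taken to log2 and quantile normalized over its whole column before replicate 1 was put in order. The strains were compared in a limma fit without covariates (version 3.58.1, R 4.3.3, two-sided moderated test) over spots with at least 2 values in each strain, with Benjamini-Hochberg adjustment over all of them. Single genes also had an exact permutation test of the difference in means. The local position adjustment takes the median over a window of 15 by 15 spots. The placing of replicate 1 and the limma fit were tested on simulated data. The labels do not say that wild-type samples came from separate cultures, so p-values reflect no more than how these samples vary, perhaps for technical reasons, and their number limits the precision. The genes named are the 7 genes, all named genes of the lipid and marker lists, and the 2 closest profiles of each gene. Outside this rule, prx-5 was chosen after the annotation was seen. The genes and lists were chosen with earlier results of these data known. Alternatives tried were normalization, background correction, slide position, filters, the placing of replicate 1, each array left out and the authors' table.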

Additional observations from a re-analysis of the deposited data

Results flagged for a closer look

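Sets of 4 mutant values were examined for 32 genes named above, and 1 of these sets held an outlying array; chance alone gives about 1 in 20. For Y59E9AL.5, the gene with the profile closest to spl-2, ahr-mutant replicate 1 read 16.197 on the log2 scale and the other mutants between 15.4 and 15.5. That array is the one whose spots were put in order by signal. None of the 7 lipid metabolism genes was among those with such a sample.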

How the results depend on the processing

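All 118 values of the 7 lipid metabolism genes under the alternatives kept their direction. In the 111 that use the array files none passed, and the lowest adjusted p of spl-2 was 0.0532, with the local position adjustment and without ahr-mutant replicate 1, a setting chosen after seeing the data. In these, spl-2 lay between -2.91 and -2.30, lbp-3 between -1.24 and -0.55, lips-8 between -0.92 and -0.16, ech-7 between -1.11 and -0.45, acs-14 between -0.93 and -0.46, acs-23 between 0.43 and 1.77 and art-1 between 0.30 and 1.31. In the authors' deposited table, tested over its own rows, the log2 differences were -3.16 for spl-2, -1.15 for lbp-3, -1.01 for acs-14, -0.90 for lips-8, -0.75 for ech-7, 0.71 for acs-23 and 0.81 for art-1, and all 7 passed, as did 1090 of its 1290 rows; as the table holds mostly spots that differ between these samples, this is no independent evidence. acs-23 was left out by the filter on dim spots. The 2 spots past the threshold, neither of them among the 7, became 0 with median scaling, quantile normalization after placing, normexp, the filter on dim spots, replicate 1 at exact table values only and each array left out (0 to 0), and 1 with the local position adjustment without ahr-mutant replicate 1. With median scaling the share of higher spots at an unadjusted p under 0.05 went from 53.3% to 42.4%. No paired analysis was possible because the labels give the strains no shared replicate numbers. The files hold no detection calls, so folds of dim spots such as acs-23 may be understated or overstated.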
